A study of Homo sapiens with 24 samples.

Results

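FSCN1 encodes fascin-1, which bundles actin filaments, and ACTA2, ACTG2, TAGLN, CNN1, MYL9, TPM1, TPM2, CALD1 and MYLK encode parts of the contractile apparatus of smooth muscle. These 10 genes were taken by name: every non-control probe whose gene name in the scanner files was a member was used, which gave 16 of the 42405 probes of the first array design and 17 of the 50599 probes of the second. The question was how their transcripts differed between cells that received miR-145 or miR-143 and cells that received other treatments.

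The series held 24 two-colour arrays of human cancer cell lines with 14 treatments. Each array set treated RNA in Cy5 against control RNA of the same line in Cy3, with 1 array per line and treatment and no dye swap. The lines were PC3, DU145 and LNCap (prostate cancer), A498 and 786O (renal cell carcinoma), and FaDu and SAS (head and neck squamous cell carcinoma). The first design had 16 arrays on 2 slides and the second had 8 arrays on 1 slide.

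On the first design, miR-145 was transfected into PC3, DU145 and LNCap, miR-23b, miR-24 and miR-27b into PC3, miR-29a into SAS and miR-375 into FaDu, each with Lipofectamine RNAiMAX against a control miRNA. The siRNA si-CAV2 was given to A498 and 786O and si-LAMB3 to FaDu and SAS, each against a control siRNA. The isoflavone genistein was given to PC3 and DU145 against cells labelled as untreated, for which the study's methods name a DMSO vehicle, and the flavone wogonin to SAS and FaDu against DMSO. On the second design, miR-143 was transfected into DU145 and PC3 and miR-27b into 786O and A498 against a control miRNA, si-GOLM1 into DU145 and PC3 against a control siRNA, and the chemokine CXCL10 was given to 786O for 12 h or 24 h against untreated cells. All are single cultured lines, and nothing says that the arrays of one treatment came from repeated cultures of a line. The p-values therefore measure the spread between arrays of different lines and, among the arrays compared against, of different treatments.

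Contraction in smooth muscle starts when myosin light chain kinase, the product of MYLK, phosphorylates the regulatory light chain encoded by MYL9. Myosin then pulls on filaments of the actins ACTA2 and ACTG2, which carry the tropomyosins TPM1 and TPM2 and the regulators caldesmon (CALD1), calponin (CNN1) and transgelin (TAGLN). The genes miR-143 and miR-145 lie side by side on chromosome 5, are abundant in smooth muscle and low in many carcinomas, and miR-145 is known both for holding smooth muscle cells in the contractile state and for repressing FSCN1. A microRNA lowers transcripts mainly through pairing of its seed, bases 2 to 8, with a site in the 3′ UTR.

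The mature sequences of the 7 transfected miRNAs are shown because they are the agents compared. They came from RefSeq (GRCh38.p14), are written 5′ to 3′, and have the seed in capitals. The labels do not name the arm of the hairpin, and the arm generally taken as the guide strand is printed.
miR-145-5p: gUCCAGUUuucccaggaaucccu
miR-143-3p: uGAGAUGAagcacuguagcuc
miR-24-3p: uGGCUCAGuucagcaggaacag
miR-29a-3p: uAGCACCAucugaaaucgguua
miR-375-3p: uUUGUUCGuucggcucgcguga
miR-23b-3p: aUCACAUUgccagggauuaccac
miR-27b-3p: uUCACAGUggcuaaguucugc
The 7 seeds all differed. The miR-145 sequence lies at chr5:149430661-149430683 and the miR-143 sequence at chr5:149428978-149428998, both on the plus strand.

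The FSCN1 probe itself covers a 7-base complement of the miR-145 seed, AACTGGA, shown here in capitals inside the 29 bases around it.
FSCN1 probe, chr7:5646234-5646262, hg19, plus strand: tagtagcttcaAACTGGAaatagcgaaat
This was 1 of the 16 member probes on the first design. The same 7 letters, read on the probe's transcript strand, occurred in 0.712% of all probes of the first design and 0.759% of the second. No member probe held the complement of the seed of miR-143 or of the other 5 miRNAs. A match in a probe is a description of those 60 bases and not evidence of a functional site, and the rest of each transcript was not searched. Over all probes measured on an array, the median log2 ratio of probes with the AACTGGA heptamer stood 0.17 below that of all probes on the miR-145 array of PC3, 0.15 below in DU145 and 0.11 below in LNCap. For the TCATCTC heptamer on the miR-143 arrays the medians stood 0.05 below in DU145 and 0.13 below in PC3.

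Values are log2 ratios of treated over control after the scanner software's background subtraction and dye normalization, and the level of a channel is its log2 signal minus the 75th percentile of that array and channel. A probe counted as measured on an array when at least 1 channel was well above background by the software's flag. Where a gene had several probes, the probe with the highest mean signal on that design is given unless said otherwise, and no probe's level is set against another's. Well-above-background probes made up 53.2% to 67.6% of the control channels and 54.2% to 68.9% of the treated channels, no spot was saturated, and the median error of a log2 ratio by the software was 0.23 to 0.36. The transcripts targeted by si-CAV2, si-LAMB3 and si-GOLM1 had negative log2 ratios on all 6 siRNA arrays, from -4.15 to -0.89.

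Some control channels stood apart from others of their line. On the first design, control channels of one line correlated with r from 0.50 to 0.96 after each probe was centred, against -0.54 to 0.44 between lines. The FaDu control of the miR-375 array had r of 0.55 and 0.67 with the other FaDu controls, which had 0.81 with each other, so differences and line means that this control enters are also given without it where they moved. The PC3 controls of miR-23b, miR-24 and miR-27b had r of 0.96 with each other, while the PC3 control of the miR-145 array had r of 0.50 with these 3. The DU145 control of the miR-145 array had r of 0.55 with the DU145 control of genistein. These PC3 and DU145 controls enter the miR-145 ratios. On the second design the 786O control of the miR-27b array had r of 0.14 and 0.02 with the untreated 786O controls of CXCL10.

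Epithelial keratins KRT8 and KRT18 and the adhesion molecule EPCAM were well above background in all 24 control channels. The fourth epithelial marker, the cadherin CDH1, was so in 14 of 16 on the first design and 4 of 8 on the second, and in none of the renal lines. Of the 5 smooth muscle markers, DES and SMTN were measured in all 24, whereas MYH11, the smooth muscle myosin heavy chain, was well above background in none, and LMOD1 and MYOCD, the coactivator that drives the contractile programme, in 1 each. Of the 5 fibroblast markers, COL1A1 was above background in most control channels and COL1A2, COL3A1, PDGFRB and DCN in none. The lines thus held epithelial keratins, with MYH11 undetected, and the members were measured outside the tissue they are named for.

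**Figure D1:**
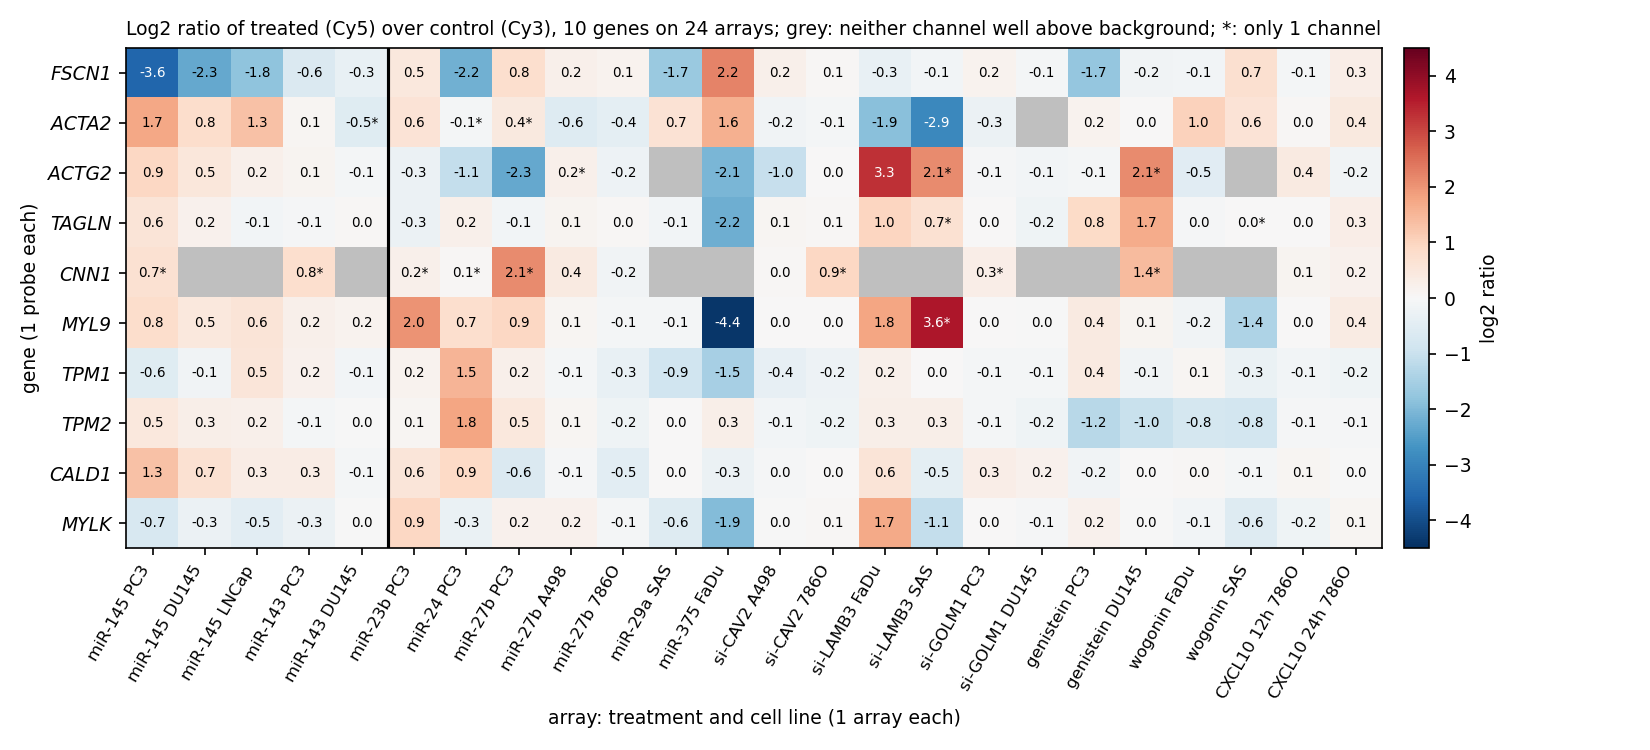
Heat map of the log2 ratio of treated over control for the 10 genes (rows, 1 probe each) on the 24 arrays (columns), with miR-145 and miR-143 left of the vertical line. Grey cells had neither channel well above background and a star marks cells with only 1 such channel. FSCN1 is negative on all 5 arrays left of the line, from -3.57 to -0.35, MYLK is negative there from -0.72 to -0.03 and MYL9 positive from 0.17 to 0.78, and the other genes hold both signs or, for CNN1, too few measured cells.

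FSCN1 had the lowest log2 ratios of the 10 genes on the miR-145 arrays. Its ratio was -3.57 in PC3, -2.30 in DU145 and -1.82 in LNCap, a mean of -2.57 ± 0.91 (SD, n = 3) or 5.92-fold lower. On the 13 arrays of other treatments it ran from -2.15 through a median of -0.11 to 2.22. The miR-24 array of PC3, at -2.15, was the 1 other array inside the miR-145 range, so the groups overlapped. Genistein in PC3 (-1.74) and miR-29a in SAS (-1.68) followed closely, and the highest value, 2.22, was that of miR-375 in FaDu.

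The difference of FSCN1 between miR-145 and other treatments was -2.42 (SE 0.67, 95% interval -3.84 to -1.01). It missed the limit of 0.05 across all probes (limma, Benjamini-Hochberg adjusted p = 0.0882), and the two-sided exact permutation test over the 560 arrangements of the arrays gave p = 0.00357 before any adjustment. Without the miR-375 array the difference was -2.23 with an adjusted p of 0.0626. Within PC3 the miR-145 ratio lay below those of all 5 other treatments given to that line without miR-143 (-2.15 to 0.76), and within DU145 below both others (-0.15 and -0.10). LNCap had no other array, and its control level of FSCN1 was -0.26, far under the 4.72 to 6.57 of the PC3 and DU145 controls of that design.

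FSCN1 was also lower on both miR-143 arrays, by less. The ratio was -0.35 in DU145 and -0.64 in PC3, against -0.10 to 0.30 on the 6 other arrays of that design. Over both designs, 2 of the 5 other treatments given to PC3 lay below the miR-143 value of that line, and neither of those given to DU145 did. The difference was -0.60 (SE 0.14, limma adjusted p = 0.377), and the exact permutation p of 0.0357 is the smallest that 2 arrays against 6 can give. Over both designs and both miRNAs, 5 arrays against 19, the difference was -1.73 (SE 0.48, adjusted p = 0.0999, exact permutation p = 0.000255 over 15680 arrangements within designs). The miR-145 effect minus the miR-143 effect was -1.83 (95% interval -3.77 to 0.11, limma adjusted p = 0.749), so the pair was not shown to differ.

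**Figure D2:**
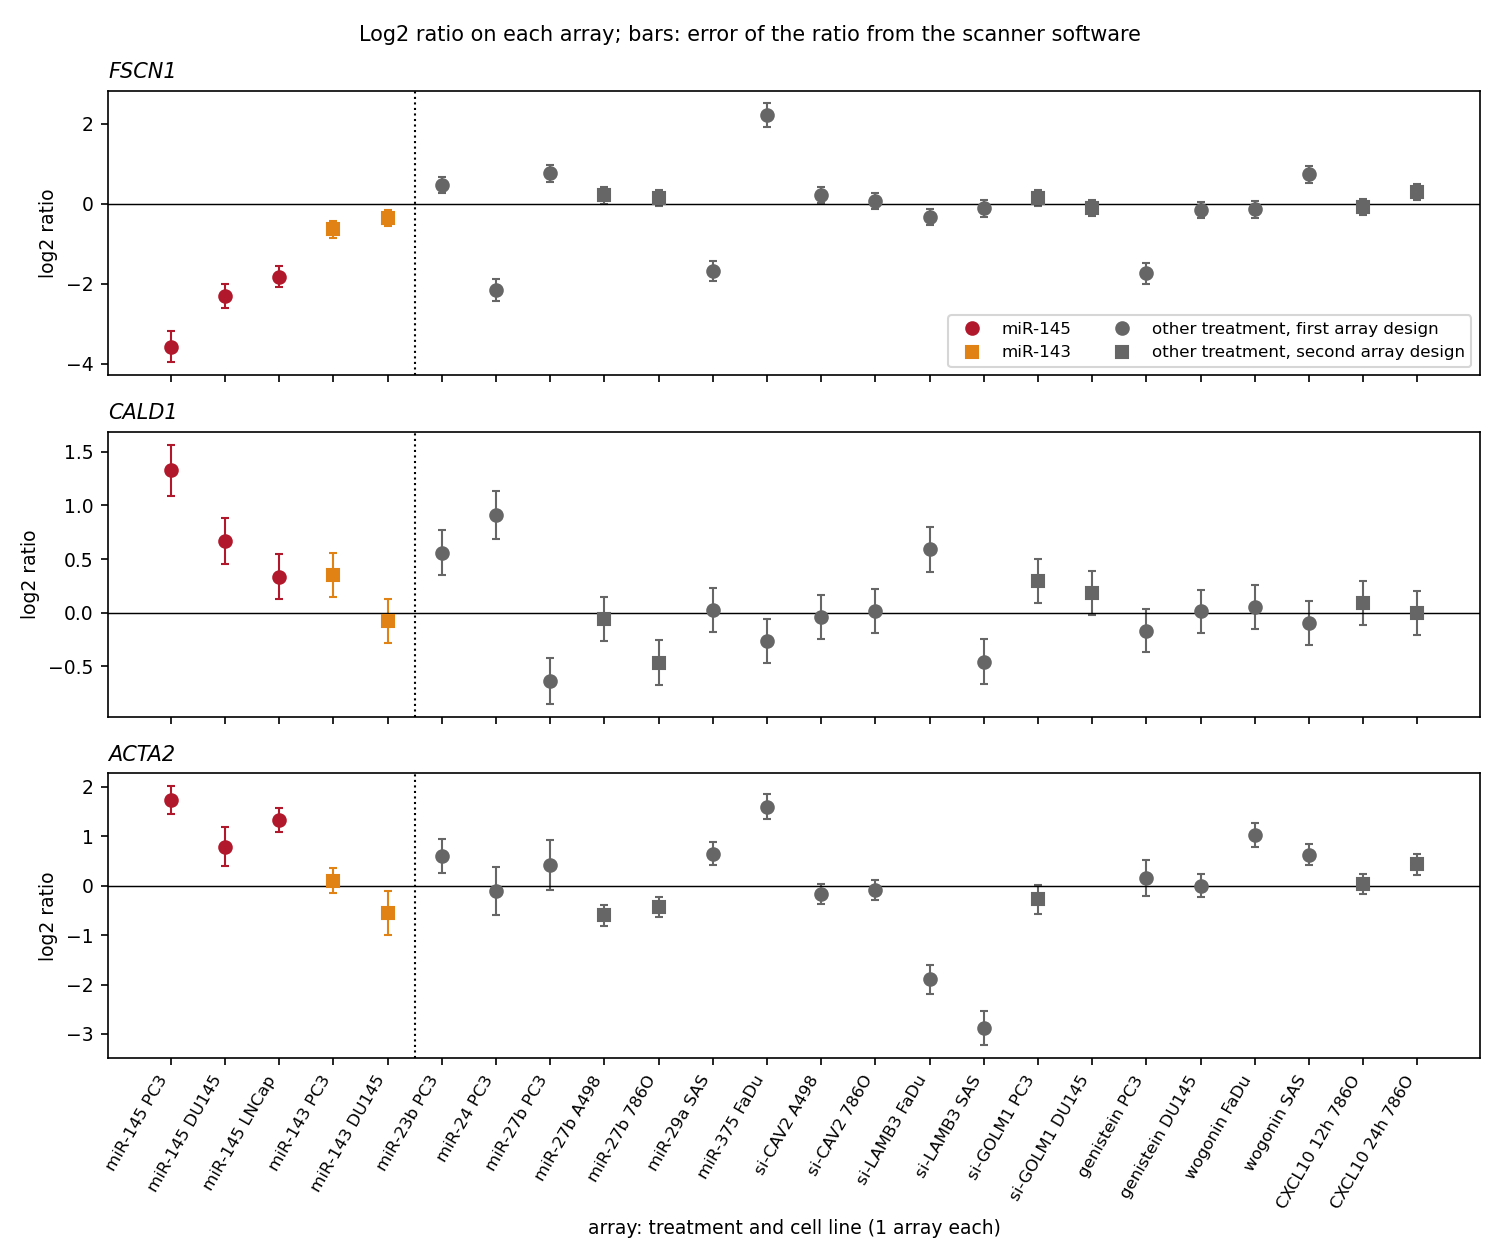
Log2 ratio of FSCN1, CALD1 and ACTA2 on each array (circles first design, squares second design), with bars for the error of the ratio from the scanner software. The 3 miR-145 arrays hold the lowest FSCN1 value and the highest CALD1 and ACTA2 values, 1.33 and 1.73, all 3 in PC3.

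Across all genes, the miR-145 comparison called 71 of 21682 genes lower (0.327%) and 304 higher (1.40%) at an adjusted p below 0.05 by limma. Of the 9 members tested, 0 passed in either direction, with FSCN1 lower and CALD1 higher at an unadjusted p below 0.05, which 6.76% of all genes reached as lower and 5.59% as higher. CNN1 was not tested there because it was measured on 7 of the 16 arrays, under the required share of 0.5. The median difference of the 9 was 0.32, against -0.06 over all genes. That median turned to -0.07 without the miR-375 array, -0.09 with prostate lines alone and -0.02 with the cell line as a block, so its sign rested on the choice of comparators.

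The miR-143 comparison called 4 of 22186 genes lower (0.0180%) and 0 higher (0%), and 0 of the 10 members, with FSCN1 alone, as lower, at an unadjusted p below 0.05 (4.41% of genes lower and 3.76% higher). The joint comparison called 14 of 18206 genes lower (0.0769%) and 100 higher (0.549%), again with 0 of 10 members, and with FSCN1 lower and CALD1 higher at an unadjusted p below 0.05 (6.46% and 5.56% of genes). The miR-145 minus miR-143 contrast called 10 genes lower (0.0549%) and 130 higher (0.714%), and 0 members, none of them at an unadjusted p below 0.05 (3.09% of genes lower and 3.94% higher).

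**Figure D3:**
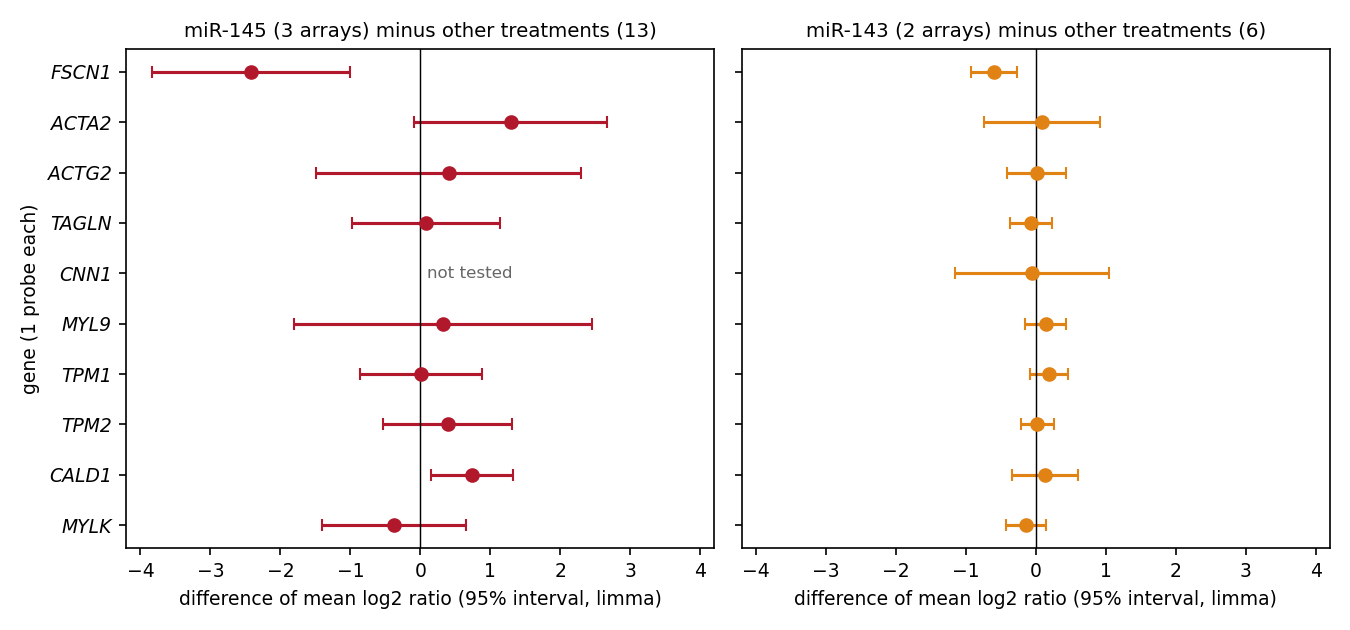
Difference of the mean log2 ratio from other treatments for each gene (points) with its 95% interval from limma (bars), for miR-145 on the left and miR-143 on the right. The FSCN1 interval lies below 0 in both panels and the CALD1 interval above 0 for miR-145, and none of these passed the adjusted limit.

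The actins gave no call. ACTA2, the smooth muscle alpha actin, had log2 ratios of 1.73 in PC3, 0.79 in DU145 and 1.34 in LNCap under miR-145, against -2.89 to 1.60 elsewhere on that design. The 3 values were positive, and 2 of the 13 other arrays lay above the lowest of them. The difference was 1.29 (SE 0.65, limma adjusted p = 0.443, exact permutation p = 0.0679), and 1.42 without the miR-375 array. On the miR-143 arrays ACTA2 was 0.10 in PC3 and -0.55 in DU145, where only the control channel was well above background. ACTG2, the enteric gamma actin, was 0.93, 0.52 and 0.21 under miR-145 in PC3, DU145 and LNCap, inside a range of -2.29 to 3.28 on the other arrays. Its difference of 0.41 had an interval of -1.49 to 2.30, which held both signs, and was 0.22 without the miR-375 array. Its miR-143 difference was 0.01 (SE 0.18). The other ACTG2 probe, at chr2:74130241-74130300 (hg19), was above background on no array in either channel.

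Among the filament regulators, CALD1 had the smallest adjusted p. Caldesmon restrains the actin-activated myosin ATPase. Its ratio was 1.33 in PC3, 0.67 in DU145 and 0.34 in LNCap under miR-145 and -0.64 to 0.91 on the other 13 arrays. In PC3 and DU145 it lay above every other array of the same line, while 3 of the 13 lay above the LNCap value. The difference was 0.74 (SE 0.28, limma adjusted p = 0.257, exact permutation p = 0.0161), and 0.72 without the miR-375 array. Under miR-143 the ratios were 0.35 in PC3 and -0.08 in DU145, and the difference was 0.13 (SE 0.20).

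The tropomyosins lie along the actin filament and gate myosin binding. TPM2 was 0.47, 0.27 and 0.21 under miR-145 in PC3, DU145 and LNCap (difference 0.39, SE 0.44, and 0.42 without the miR-375 array), and its other probe gave 0.67, 0.42 and 0.46 in the same order (difference 0.50, SE 0.43). TPM1 was -0.56 in PC3, -0.15 in DU145 and 0.55 in LNCap, so the 3 lines spread over both signs, and the difference of 0.01 (SE 0.41) turned negative without the miR-375 array. The other TPM1 probes gave differences of -0.03 and -0.12. The PC3 control channel of that array had a TPM1 level of 1.16, above the 0.16 to 0.36 of the other PC3 controls, and the part this plays in the PC3 ratio was not tested. Under miR-143 the differences were 0.18 (SE 0.12) for TPM1 and 0.02 (SE 0.10) for TPM2.

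TAGLN, an actin-binding marker of the contractile state, was 0.60 in PC3, 0.18 in DU145 and -0.11 in LNCap under miR-145, a difference of 0.08 (SE 0.50) that turned negative without the miR-375 array, at -0.11. CNN1, which inhibits the myosin ATPase, was dim in most lines. Its treated channel alone was above background on the miR-145 array of PC3, where it was at least 1.60-fold higher, and on the miR-143 array of PC3, where it was at least 1.37-fold higher. An "at least" fold sets the bright channel against the lowest signal the array could measure, since the other channel has only a bound. The nominal CNN1 ratios in PC3 were 0.67 under miR-145 and 0.77 under miR-143. Those of the 5 other treatments given to PC3 ran from 0.07 to 2.11, the highest under miR-27b. Under other treatments CNN1 was above 0.5 on 3 of the 11 arrays where it was measured. Its miR-143 difference was -0.05.

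On the myosin side, MYL9 was 0.78 in PC3, 0.46 in DU145 and 0.56 in LNCap under miR-145, close together, but the 13 other arrays ran from -4.37 to 3.65 and the difference of 0.32 had an SE of 1.01 and was -0.07 without the miR-375 array. MYLK was negative on all 3 miR-145 arrays, with -0.72 in PC3, -0.28 in DU145 and -0.49 in LNCap. That lay below the other arrays of PC3 and of DU145, yet 5 of the 13 others lay below the highest of the 3 and the difference was -0.38 (SE 0.49, limma adjusted p = 0.829), or -0.53 without the miR-375 array. The second probe for this transcript gave -0.33 (SE 0.55). A further MYLK probe, to NM_053027 and on the second design only, read 1.15 in PC3 and 0.87 in DU145 under miR-143 against -0.62 to 0.40 elsewhere. It was dim there: in PC3 neither channel was well above background and in DU145 only the treated channel was, so no direction is read from it. The brightest MYLK probe had a difference of -0.14 (SE 0.12) for miR-143.

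Counted by size alone, as log2 ratios past 0.5 with no test, 3 of the 9 members in the fit were lower and 5 higher on the miR-145 array of PC3, where 17.4% and 16.4% of all measured genes passed. In DU145, 1 was lower and 3 higher (8.08% and 7.71% of genes), and in LNCap 1 and 3 (11.9% and 11.7%). FSCN1 was among the lower members on all 3 arrays and ACTA2 a higher member on all 3. On the arrays of treatments other than miR-145 and miR-143, ACTA2 was higher on 5 and lower on 3 of the 18 where it was measured. FSCN1 was lower on 3 and higher on 3 of 19. On the miR-143 arrays 1 of 9 was lower and 0 higher in DU145 (4.37% and 6.98% of genes), and 1 of 10 was lower and 1 higher in PC3 (5.56% and 6.03%). The lower member was ACTA2 in DU145 and FSCN1 in PC3, and the higher was CNN1. For ACTA2 in DU145 and CNN1 in PC3 only 1 channel was well above background, and the nominal ratio was counted. The bound given for CNN1 above falls short of 0.5 on the log2 scale. Both counts went to 0 with another background correction.

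Other genes of the same pathways were read from lists. Of 5 other actins and tropomyosins tested, 0 passed for miR-145, with 1 at an unadjusted p below 0.05, and TPM3 was lower for miR-143. TPM3, a cytoskeletal tropomyosin, had ratios of -1.17 in DU145 and -1.28 in PC3 (difference -1.29, SE 0.13, limma adjusted p = 0.0493) against -0.10 to 0.33 on the other 6 arrays. TPM3 was also called lower over both miRNAs (difference -0.93, SE 0.20, limma adjusted p = 0.0338). Its 6 probes had means from -1.23 to -0.06 on the miR-143 arrays, and from -1.70 to 0.32, with both signs, on the miR-145 arrays. The fitted probe read -0.67 to -0.33 under miR-145, a range that held miR-24 in PC3 (-0.62) and genistein in PC3 (-0.53). The miR-143 call was lost in 7 of 12 alternatives and the joint call in 9 of 18 (adjusted p up to 0.302), all negative. Of 10 other actin bundling and crosslinking genes 0 passed in either comparison, with medians of -0.08 for miR-145 and -0.04 for miR-143. At an unadjusted p below 0.05 these were 2 for miR-145 and 0 for miR-143. Of the other smooth muscle contractile genes 0 of 14 passed for miR-145, with 11 above 0, as were 42.9% of all genes, and 4 higher at an unadjusted p below 0.05. For miR-143 it was 0 of 15, with 1 such gene. The shares of all genes at that unadjusted limit, given above, are the background of these and the following counts.

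Among 6 regulators tested, KLF4 was the 1 past the limit for miR-145, and it was higher. KLF4 is a transcription factor that represses contractile genes and a reported miR-145 target. Its ratio was 2.65 in PC3, 1.62 in DU145 and 4.91 in LNCap, against -1.66 to 1.41 elsewhere (difference 3.13, SE 0.67, limma adjusted p = 0.0183). Of 20 tested genes reported as miR-145 targets, 16 were below 0, as were 57.1% of all genes, and 2 were called lower. PPP3CA, a catalytic subunit of calcineurin, was -1.62 in PC3, -0.99 in DU145 and -0.99 in LNCap (adjusted p = 0.00184). SWAP70, which binds actin and activates Rac, was -1.60, -1.57 and -0.82 in the same order (adjusted p = 0.0164). Of 9 reported miR-143 targets, a list that holds FSCN1, 0 passed for miR-143 and 8 were below 0 (48.6% of all genes). At an unadjusted p below 0.05, 4 were lower and 1, the target above 0, was higher. Of the 7 regulators and 18 reported miR-145 targets tested for miR-143, 0 passed, with 2 and 3 lower at an unadjusted p below 0.05.

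Markers of other cell types were read beside these results. The summed signal of the 5 smooth muscle markers differed between treated and control channels by -0.12 to -0.02 on the miR-145 arrays and by -1.04 to 1.07 on the other 13, and by 0.31 to 0.32 on the miR-143 arrays against -0.06 to 0.34. The summed fibroblast markers differed by -0.39 to 0.94 under miR-145 and by 0.29 to 0.32 under miR-143. Of the 4 squamous markers, KRT14, a basal keratin, was the 1 tested and was higher under miR-145, with ratios of 2.43 in DU145 and 3.03 in LNCap (difference 3.73, SE 0.78, limma adjusted p = 0.0161). In PC3, whose control channel was not well above background, it was at least 44.2-fold higher. The fit took the nominal PC3 ratio, and without that array the difference was 2.82 and the call was lost (adjusted p = 0.287). Under genistein KRT14 was 0.92 in DU145 and at least 5.51-fold higher in PC3, and under miR-375 in FaDu it was -2.36. The KRT14 level of the PC3 control was -5.25 on the miR-145 array. On the second design the PC3 controls stood at 0.19 and 0.17, well above background, with no test across the designs. The summed squamous list was higher in the treated channel by 1.89 to 4.24 on the miR-145 arrays, against -1.92 to 1.76 on the others of that design, and KRT5 was above background in none of the prostate channels. The part these markers played in the members' values was not tested.

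Treatments other than miR-145 and miR-143 had larger log2 ratios for single members. Under si-LAMB3 (laminin beta 3, an anchoring subunit of the epithelial basement membrane) ACTA2 was lower in both lines, at -1.89 in FaDu and -2.89 in SAS. It passed the limit (difference -3.00, SE 0.46, limma adjusted p = 0.0104), where 30 of 21682 genes were called lower (0.138%) and 2 higher (0.00922%), and none of the other 8 members tested did. On these 2 arrays, as on all, the difference is from the other treatments of the design. The call was lost with another background correction (difference -1.54, adjusted p = 0.0513) and without either array (adjusted p = 0.0853 without FaDu and 0.317 without SAS). Without the miR-375 array it stayed (difference -2.93, adjusted p = 0.00904). ACTG2 went the other way on the same arrays, with 3.28 in FaDu and at least 4.02-fold higher in SAS (adjusted p = 0.297), and so did MYL9, with 1.77 in FaDu and at least 12.5-fold higher in SAS (adjusted p = 0.478). MYLK had opposite signs in the 2 lines, 1.71 in FaDu and -1.06 in SAS.

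Genistein gave 0 member calls by limma, with TPM2 lower and TAGLN higher at an unadjusted p below 0.05 (8.26% and 6.72% of genes), where 284 of 21682 genes were called lower (1.31%) and 139 higher (0.641%). TPM2 was -1.23 in PC3 and -0.99 in DU145 (difference -1.27, SE 0.43, limma adjusted p = 0.155), and its other probe -1.14 and -0.89. The PC3 control channel had a TPM2 level of 1.01 against -0.24 to 0.05 in the other PC3 controls. TAGLN was 0.85 in PC3 and 1.67 in DU145 (adjusted p = 0.242, and 0.0572 without the miR-375 array), and its other probe 1.87 and 2.81. FSCN1 was -1.74 in PC3 and -0.15 in DU145, so the 2 lines differed in size. ACTG2 was -0.08 in PC3 and at least 2.92-fold higher in DU145. The other treatments with 2 arrays on a design also gave 0 member calls by limma. Wogonin called 0 genes lower and 0.0231% higher, si-CAV2 0.00922% lower and 0 higher, si-GOLM1 0.00451% lower and 0 higher, and miR-27b in the renal lines 0.0406% lower and 0.0135% higher. At an unadjusted p below 0.05 the 1 member among these 4 treatments was CALD1 under miR-27b, with -0.47 in 786O and -0.06 in A498 (difference -0.40, SE 0.16, adjusted p = 0.738). Of all genes, 8.15% reached that unadjusted limit in either direction for wogonin, 1.95% for si-CAV2, 12.0% for si-GOLM1 and 6.17% for miR-27b.

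Treatments with a single array have no test. Under miR-24 in PC3, 2 of 9 members were lower and 4 higher by size (23.0% and 27.3% of genes). The tropomyosins stood out among them, TPM2 with 1.78 and TPM1 with 1.52, though the third TPM1 probe read 0.45. FSCN1 was -2.15 there. Under miR-375 in FaDu, 5 of 9 members were lower and 2 higher (23.0% and 25.0% of genes). MYL9 was -4.37, TAGLN -2.19 with -4.04 by its other probe, ACTG2 -2.05, MYLK -1.95 and TPM1 -1.50, while FSCN1 was 2.22 and ACTA2 1.60.

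These miR-375 ratios rest on the control channel that stood apart. MYL9 had a control level of 2.64 there against -0.44 and 0.15 in the other FaDu controls, and -1.72 in the treated channel. FSCN1 had a control level of 3.69 against 5.48 and 6.06, and 5.91 in the treated channel. For both genes the treated level was nearer to the other FaDu controls than the array's own control was. The part of this control in the ratios was not tested. In SAS, miR-29a gave FSCN1 -1.68 and TPM1 -0.90. In PC3, miR-23b gave MYL9 2.01 and MYLK 0.94.

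Because SRF acts on contractile genes through CArG boxes, the promoters of the members were searched for that motif by its name, a palindrome that reads alike on both strands. RefSeq windows from 250 bases before to 50 after the start were at hand for 7 of the 10 genes. The windows with a match are shown, GRCh38.p14, with the box in capitals.
ACTG2, chr2:73892888-73892917, plus strand: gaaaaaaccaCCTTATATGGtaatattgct
ACTG2, chr2:73892925-73892954, plus strand: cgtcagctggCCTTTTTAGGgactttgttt
MYLK, chr3:123620623-123620652, minus strand: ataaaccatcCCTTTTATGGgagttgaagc
Of all 35116 promoter windows 454 (1.29%) held a box. ACTG2 held 2 and MYLK 1, and the windows of ACTA2, CNN1, TPM1, TPM2 and CALD1 held none of this strict form. The boxes found all read CC, then only A or T, then GG. A box with another base in its core was not counted, so these windows are not shown to lack CArG boxes. No binding was measured here, and a box in a window is a description of its letters.

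The control channels show the levels of the members in each line in control cells. These were untreated, given DMSO, or transfected with a control miRNA or siRNA, and these kinds were pooled within a line. All 9 members tested passed the F test across the 7 lines of the first design (limma adjusted p below 0.05), as did 14130 of 21682 genes (65.2%), so a call was the usual result. LNCap, A498 and 786O had 1 control channel each, and their spread is assumed to be that of the other lines. The PC3 controls of miR-23b, miR-24 and miR-27b, with r of 0.96, counted as 3 of the 5 PC3 channels. With these 3 averaged to 1, 8 of the 54 steps between neighbouring lines passed, against 11 before. Without the FaDu control of the miR-375 array 11 passed.

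FSCN1 was high in all lines but LNCap. Its mean level was 6.23 in PC3 (n = 5), 6.04 in 786O, 5.77 in SAS, 5.73 in A498, 5.08 in FaDu and 4.92 in DU145, and -0.26 in LNCap. No neighbours in this order differed past the limit except DU145 and LNCap (difference 5.19, SE 0.72, limma adjusted p = 0.000316), a pair for which 20.5% of probes passed. Without the control of the miR-375 array the FaDu mean was 5.77, beside SAS at 5.77 and A498 at 5.73. CALD1 was highest in LNCap, at 5.10, with 786O at 4.40 and A498 at 4.39. These 3 did not differ, and the step from A498 down to SAS at 2.06 passed (adjusted p = 0.0102, 23.2% of probes), with DU145 lowest at 0.41.

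The tropomyosins marked different lines. TPM2 was highest in SAS, 5.53, then FaDu, 4.07, and both steps, to FaDu and from there to A498 at 1.62, passed (adjusted p = 0.00704 and 0.00246, with 25.2% and 25.0% of probes). TPM1 was highest in the renal lines, 5.67 in 786O and 4.52 in A498, and lowest in PC3 at 0.42. The steps from A498 to DU145 at 2.50 and from there to SAS at 1.40 passed (adjusted p = 0.0123 and 0.0372, with 16.2% and 26.2% of probes), the latter not with the 3 PC3 controls averaged (adjusted p = 0.0573).

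TAGLN was highest in DU145, 1.17, and above the next line, FaDu at -1.07 (adjusted p = 0.0318, 26.1% of probes). Without the control of the miR-375 array FaDu was at -1.84 and the step passed (adjusted p = 0.00270), and with the 3 PC3 controls averaged it did not (adjusted p = 0.0562). MYL9 was highest in 786O at 2.38, DU145 at 2.37 and A498 at 1.87, which did not differ from each other, and lowest in SAS at -3.73 and LNCap at -3.76, with FaDu at 0.78 and PC3 at -1.76 between them. The step from FaDu to PC3 passed (adjusted p = 0.0165, 44.0% of probes), but not without the control of the miR-375 array, which put FaDu at -0.14 (adjusted p = 0.0925), nor with the 3 PC3 controls averaged (adjusted p = 0.0898). The step from PC3 to SAS then passed in both (adjusted p = 0.0232 and 0.0375, against 0.0535 before). MYLK was highest in SAS, 3.34, followed by A498 and 786O at 2.57 and 2.55, and lowest in LNCap at -1.70, with passing steps from DU145 to PC3 (adjusted p = 0.0247, 31.1% of probes, and 0.0982 with the 3 PC3 controls averaged) and from PC3 to FaDu (adjusted p = 0.0123). ACTA2 was highest in A498 at 0.19 and lowest in PC3 and DU145 at -4.36 and -4.38. The step from FaDu at -2.67 to PC3 passed (adjusted p = 0.0122), and DU145 against FaDu did not (adjusted p = 0.0522). ACTG2 was highest in FaDu at -1.35, and none of its neighbouring lines differed past the limit.

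On the second design, which held 4 of the lines, the same lines were at the top for CALD1, TPM1 and TAGLN. CALD1 was 4.67 in A498 and 4.48 in 786O against 0.72 in DU145, TPM1 was 5.88 in 786O, and TAGLN 2.35 in DU145. FSCN1, highest in PC3 on the first design, was highest in A498 there, at 6.89. Levels in PC3 differed between the designs for several members, with no test across them. The mean of ACTG2 in PC3 was 1.69 there and -2.29 on the first design. In the same order it was -0.18 and -2.89 for TAGLN, 0.92 and -1.76 for MYL9, 2.81 and 0.42 for TPM1, and 6.10 and 6.23 for FSCN1.

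**Figure D4:**
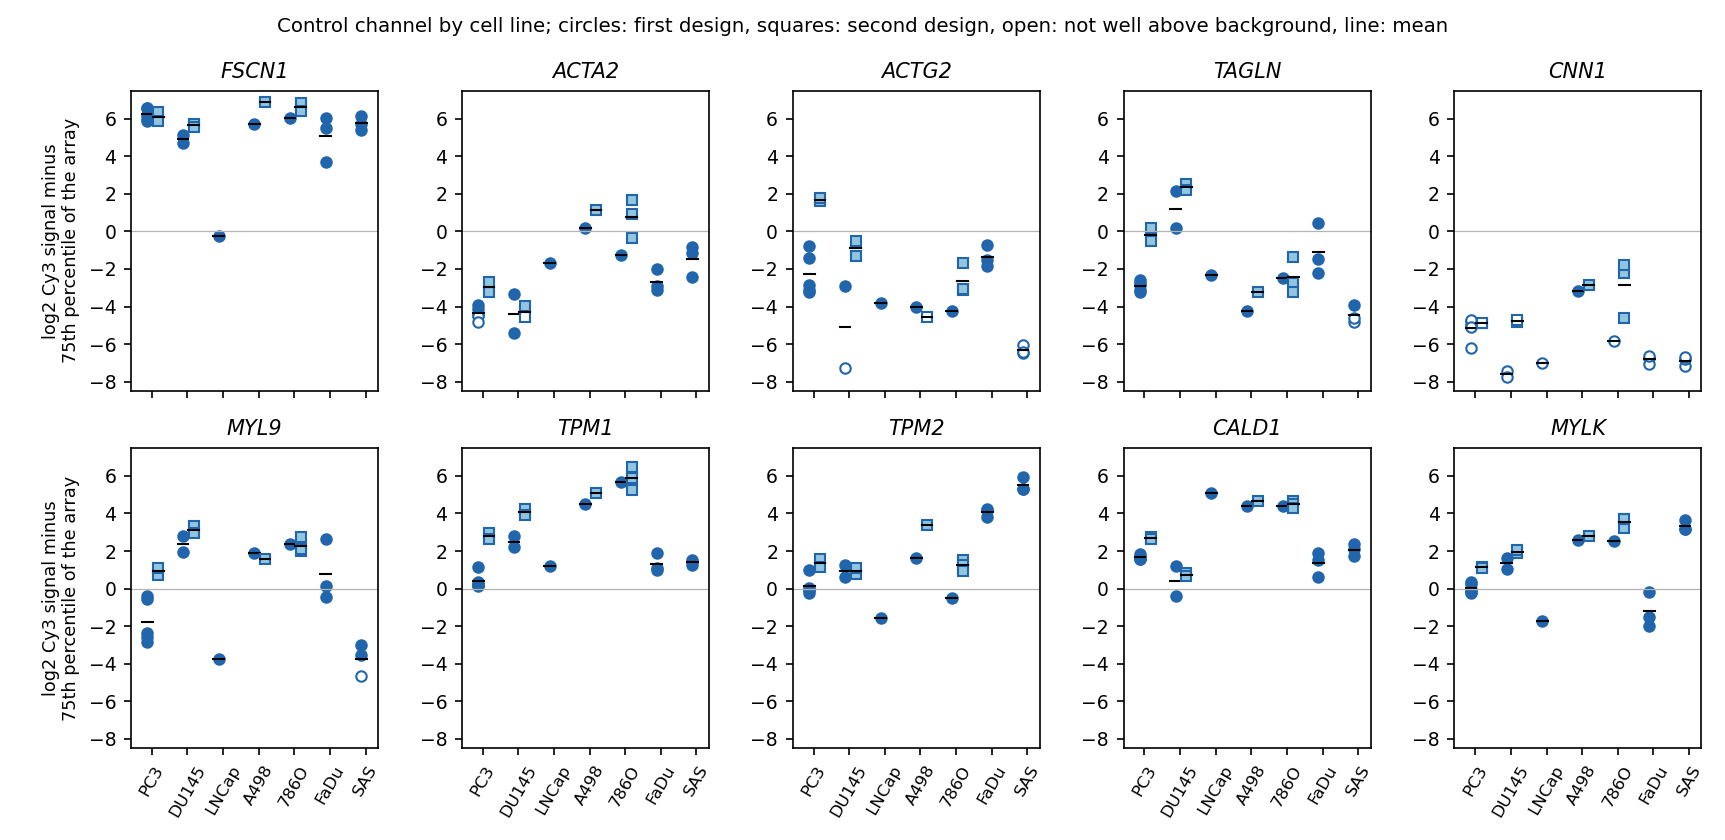
Control channel level (log2 signal minus the 75th percentile of the array) of each gene by cell line, with circles for the first and squares for the second design, open where not well above background, and a line at the mean. FSCN1 lies between 3.69 and 6.89 in every line but LNCap, at -0.26, whereas CALD1 is highest in LNCap and the renal lines and TPM2 in SAS and FaDu.

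The genes whose log2 ratios followed FSCN1 most closely over the 16 arrays of the first design, among 13802 genes above background throughout, were IMP3 (Pearson r 0.93), G3BP1 (0.93), RTKN (0.90), SRSF8 (0.90) and POP7 (0.89). Without the miR-375 array they had r of 0.91, 0.90, 0.89, 0.88 and 0.87. Of the members compared the same way, CALD1 had r of -0.69 with FSCN1, TPM1 -0.35, TPM2 -0.25 and MYLK -0.06. Without the miR-375 array these were -0.69, -0.08, -0.35 and 0.34, so that MYLK turned sign. The arrays share lines and slides, so these values are descriptions.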

How the data were processed

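Per the file headers, arrays were read with Agilent Feature Extraction 10.7.3.1, and probe coordinates are hg19. The authors deposited, per spot, a log10 ratio of Cy5 over Cy3, background-subtracted and dye-normalized intensity of both channels, and flags. The deposited series table held the same log10 ratio (largest difference 0). By the labels treated RNA was in Cy5 throughout. Without dye swaps, a probe's dye effect cancels only in differences between arrays.

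Log10 ratios were multiplied by 3.32 to give log2. Control spots and outlier flags were left out and spots of a probe averaged. Probes well above background in either channel on at least 0.5 of the arrays of a comparison were fitted with limma 3.58.1 (R 4.3.3): miR-145 (3 arrays) against 13 others, miR-143 (2) against 6, both jointly with array design as a term, their contrast, each other treatment with 2 arrays on a design, and control levels by line. P-values were Benjamini-Hochberg adjusted over all probes tested, and single values also had two-sided exact permutation tests over arrays. The number of arrays limits the precision. On simulated data with 200 probes changed by 1 on the log2 scale, the miR-145 fit (27183 probes) called 29, the miR-143 fit (28752) 95 and the joint fit (23423) 118, and with a change of 2 they called 152, 166 and 190. The simulated arrays were independent draws with each probe's spread over all real arrays, treatment effects included. Lines, slides and control RNA shared between real arrays were not modelled, so these counts may not hold for the real fits. Alternatives covered background correction, centring, probe filters, comparators, line and slide blocks, and left-out arrays.

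Named were all 10 genes, called genes of the lists, and the 5 genes most like FSCN1. The genes and lists were chosen with earlier results of these data known and give no independent support.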

Additional observations from a re-analysis of the deposited data

Results flagged for a closer look

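Among the 5 PC3 control channels of the first design, the TPM1 level of the miR-145 array was 1.16, far from the other 4 at 0.16 to 0.36 relative to the range of the group. Likewise the TPM2 level of the genistein array was 1.01, against -0.24 to 0.05. That control was the only 1 of the 5 not transfected with a control miRNA, and the part this played in its TPM2 level was not tested. Chance alone sets apart about 1 in 20 such groups of independent channels, and 9 were searched, 1 for each member tested. The PC3 controls of miR-23b, miR-24 and miR-27b had r of 0.96 with each other, so that rate may not hold here.

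Under si-LAMB3 the log2 ratio of MYLK was 1.71 in FaDu and -1.06 in SAS, with both channels well above background on both arrays. The signs were opposite in the 2 lines. With 1 array per line the difference was not tested, and it was the 1 such case past 0.5 in both lines among 66 pairs of member and treatment compared.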

How the results depend on the processing

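No paired analysis was possible because replicate numbers only follow accession order, but lines shared by treatments were matched in the fits with the cell line as a block. FSCN1 stayed negative under every alternative run. For miR-145 the 17 alternatives gave -2.80 to -1.92 with limma adjusted p of 0.0584 to 0.645, for miR-143 12 gave -0.74 to -0.45 (0.136 to 0.724), jointly 18 gave -1.99 to -1.31 (0.0530 to 0.717), and for the contrast 8 gave -2.20 to -1.32 (0.692 or above). The exact permutation tests put the same differences, -2.42, -0.60 and -1.73, past 0.05 without adjustment. These tests treat the arrays of a design as exchangeable. Lines, slides and control RNA shared between arrays were not taken into account, so their p-values may be too small.

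Signs turned for uncalled differences. For miR-145, with the cell line as a block, TAGLN was -0.32, MYL9 -0.022 and TPM1 -0.70. With prostate lines alone they were -0.26, -0.24 and -0.49, and without the miR-375 array -0.11, -0.065 and -0.11. TPM1 was -0.048 as the mean of its probes, and TPM2 was -0.00041 with transfected comparators alone. Leaving out single miR-145 arrays gave -0.11 to 0.25 for TAGLN and -0.29 to 0.26 for TPM1, the lowest without PC3 and LNCap, respectively. For miR-143, the block by line or prostate lines alone gave TAGLN 0.064, CNN1 0.27 and CALD1 -0.10. CNN1 was 0.088 without background subtraction, 0.0090 with normexp and 0.040 with transfected comparators, and MYLK was 0.29 as the mean of its probes. Leaving out PC3 or DU145 gave ACTA2 -0.24 or 0.41, ACTG2 -0.090 or 0.11, CALD1 -0.080 or 0.34, CNN1 -0.88 or 0.78 and TPM2 0.060 or -0.016.

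The si-LAMB3 call of ACTA2 went to 0 called members with normexp and in both left-out fits (0 to 0). With normexp, 0 members were past 0.5 lower for miR-143 in DU145 and 0 higher in PC3. POP7 had r of 0.87 without the miR-375 array. Over all genes, calls ran from 10 to 97 lower and 105 to 475 higher for miR-145, 0 to 25 and 0 to 14 for miR-143, 0 to 63 and 0 to 242 jointly, and 0 to 9 and 31 to 198 for the contrast. Genistein went from 284 lower and 139 higher to 15 and 5 without PC3 and 492 and 299 with normexp. si-GOLM1 went from 1 and 0 to 25 and 7 without DU145 and 44 and 13 with normexp, and miR-27b from 9 lower to 77 with normexp and 4 without A498. si-LAMB3 had 7 to 38 lower, wogonin 0 to 10 lower and 0 to 14 higher, and si-CAV2 1 to 3 lower. KLF4 stayed past the limit in 11 of 17 alternatives, PPP3CA in 16 of 17, SWAP70 in 11 of 17, KRT14 in 10 of 16 TPM3 in 5 of 12 for miR-143 and in 9 of 18 jointly. The fits without miR-375 and with 3 PC3 arrays averaged, control levels included, without single treatment arrays and of single arrays were chosen after seeing the data, and the causes were not tested.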
